A study of Mus musculus with 8 samples.

Results

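The SOCS family of feedback inhibitors was followed in a mouse T cell line before and after stimulation with GM-CSF. The family was taken as the 8 genes Cish and Socs1 to Socs7, chosen by name, and all 8 were on the array, with 9 probes (Socs6 had 2) among 21776 gene probes that could be placed on spots. The cells were CTL-EN cells, which carried the human beta common chain (beta-c), the signalling subunit of the GM-CSF receptor, either as the wild type or as the Ser585Gly mutant, in which a serine is replaced by glycine. All cells of both genotypes were first deprived of factor for 12 h in RPMI medium with 0.5% CS, and this point is called 0 h. Human GM-CSF (50 ng/mL) was then added, and the 12 h cells were taken 12 h later. The 4 conditions were therefore wild type at 0 h, Ser585Gly at 0 h, wild type at 12 h and Ser585Gly at 12 h. There was no 12 h control without GM-CSF, so its effect cannot be told apart from that of the added hours in culture. The introduced human chain had no probe on this mouse array, so its own level was not measured, and the labels do not say how many clones or cultures stand behind each genotype.

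RNA was compared on 8 two-colour arrays that joined the 4 conditions in a square, with 2 arrays of opposite dye orientation for each side. In replicate 1 of each pair the 12 h or Ser585Gly RNA was in Cy5, and in replicate 2 it was in Cy3. Every value below was turned so that a positive log2 ratio means higher at 12 h or higher in Ser585Gly. No separate cultures or extracts are named in the labels, so a dye-swap pair was read as a technical repeat, and all p-values measure only the spread between hybridisations. Fitted log2 ratios come from 1 limma model over all 8 arrays and are given with their standard error, and a gene was called where the Benjamini-Hochberg adjusted p over all 21776 probes was below 0.05. A fitted ratio joins the direct arrays of a side with the path around the other 3 sides. Over all probes, which are not independent replicates, the 2 turned arrays of a pair had a correlation of 0.515 (wild type) and 0.509 (Ser585Gly) on the time sides, but of 0.124 (0 h) and 0.219 (12 h) on the mutation sides. Gene names rest on a print order recovered from the spots, because the deposited names follow another order. Probe pairs of the same gene on different plates had wild-type time ratios that correlated at 0.392 over 1358 pairs in the recovered order and at 0.012 in the deposited order. On the plate that held Cish, Socs1, Socs2 and 1 Socs6 probe the same correlation was 0.412 over 33 pairs, against 0.089. In RNA from whole cultures, fewer cells of a type and less RNA per cell cannot be told apart.

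Cytokine receptors of the GM-CSF type have no enzyme activity of their own. They rely on JAK kinases, which phosphorylate the receptor and the STAT transcription factors, and STAT5 then switches on target genes. SOCS proteins close this loop. Each has a central SH2 domain that binds phosphorylated tyrosine and a SOCS box at its end that joins an elongin and cullin ubiquitin ligase. CIS, the product of Cish, and SOCS2 are classical STAT5 targets that occupy receptor docking sites. SOCS1 and SOCS3 also carry a short region that blocks JAK kinase activity and are typical of interferon and of interleukin-6 type signalling. SOCS4 to SOCS7 have long amino ends and are tied more to receptor tyrosine kinases and insulin-type signalling.

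The start of Cish is shown first, because this gene changed most and because STAT5 dimers bind the palindrome TTCNNNGAA. The sequence is from RefSeq on build GRCm38.p6, on the plus strand at chr9:107296409-107296678, and runs from 250 bases before the annotated start of the gene to the 20 bases from that start on, with matches to the palindrome in capitals.
Cish: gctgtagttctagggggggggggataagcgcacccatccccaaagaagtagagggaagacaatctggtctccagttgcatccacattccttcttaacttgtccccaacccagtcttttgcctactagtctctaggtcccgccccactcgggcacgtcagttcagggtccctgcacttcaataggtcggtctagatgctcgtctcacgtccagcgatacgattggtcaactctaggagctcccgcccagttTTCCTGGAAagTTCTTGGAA

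The Cish window held 2 matches, TTCCTGGAA, which begins at the annotated start, and TTCTTGGAA, which begins 11 bases further on. Windows of 300 bases (250 before and 50 from the start on) were searched for this motif, which reads the same on both strands. The table of windows held 4 of the 8 members, namely Cish, Socs1, Socs3 and Socs4. Socs3 had 1 match, TTCTTAGAA, at chr11:117969512-117969520 on the minus strand. The start used for the Socs3 window lies inside the full annotated span of that gene, and so does the match, while Socs1 and Socs4 had none in their windows. Among all 32851 windows in the table, 8.3% held at least 1 match and 0.457% held 2 or more. A match is a string of letters and is not evidence of binding in these cells.

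Cish, a feedback inhibitor that docks on activated cytokine receptors, rose about 4.17-fold between 0 h and 12 h in wild-type cells and 4.18-fold in Ser585Gly cells. In wild type the log2 ratio was 2.0 on replicate 1 and 2.05 on replicate 2. In Ser585Gly it was 1.95 and 2.24. All 4 time arrays were therefore high, and both dye orientations gave the rise. The raw signals show it directly, for in the 12 h wild-type channel Cish had an intensity of 6453 in Cy5 on replicate 1 and 9079 in Cy3 on replicate 2, against 1391 in Cy3 and 2159 in Cy5 for the 0 h RNA on the same arrays. The fitted log2 ratio was 2.06 ± 0.11 (SE) in wild type (adjusted p = 0.00012, limma, 8 arrays) and 2.06 ± 0.11 in Ser585Gly (adjusted p = 0.000148). Both calls held under all 20 other settings that kept the recovered names, with values of 1.88 to 2.20 and 1.79 to 2.16.

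The rise of Cish was also compared between the genotypes. The interaction, which is the log2 rise in Ser585Gly minus that in wild type, was 0.00 ± 0.13, with a 95% interval of −0.30 to 0.30 and an adjusted p of 0.997 (limma). The interval therefore leaves room for a rise that is larger or smaller in Ser585Gly by up to 0.30 on the log2 scale.

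The level of Cish was lower in Ser585Gly than in wild type at both times. At 0 h the log2 ratio of Ser585Gly over wild type was −1.01 on replicate 1 and −0.32 on replicate 2, and at 12 h it was −0.91 and −0.56. All 4 mutation arrays were below 0, but the size differed between dye orientations, with the larger difference on replicate 1 each time. The fitted value was −0.70 ± 0.11 at 0 h (adjusted p = 0.0166, limma) and −0.70 ± 0.11 at 12 h (adjusted p = 0.0219). These calls were less firm than the time response. The call at 0 h held in 14 of 20 other settings and the call at 12 h in 12 of 20, with the value below 0 in all of them. With each dye-swap pair averaged to 1 value, the adjusted p was 0.0531 at 0 h and 0.0782 at 12 h, and without the dye term it was 0.0666 at 12 h. The deposited value table gave a smaller difference of −0.44 at 0 h (adjusted p = 0.0101). The direct arrays alone, on which the 2 comparisons share no RNA, gave −0.66 (adjusted p = 0.0722) and −0.73 (adjusted p = 0.0769). Leaving out 1 array also ended the 0 h call for replicate 1 or 2 of the mutation at 0 h (adjusted p = 0.075 and 0.0568) and for replicate 1 of time in Ser585Gly (0.0622). Leaving out both direct 0 h arrays gave −0.80 (adjusted p = 0.313). The 12 h call ended in the same way for replicate 1 or 2 of the mutation at 12 h (0.214 and 0.257), replicate 1 of time in wild type (0.0611) and replicate 1 or 2 of time in Ser585Gly (0.0699 and 0.0509).

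The 4 conditions put Cish in the order Ser585Gly 0 h, wild type 0 h, Ser585Gly 12 h, wild type 12 h. Its log2 channel level, taken over the 4 channels that held each RNA, was 10.82 ± 0.62 (SD, n = 4 channels) in Ser585Gly at 0 h and 11.32 ± 0.69 in wild type at 0 h. At 12 h it was 12.63 ± 0.20 in Ser585Gly and 13.13 ± 0.46 in wild type. The highest 0 h channel reached 12.05 and the lowest 12 h channel 12.37, so the times did not overlap. The 2 genotypes overlapped at each time, at 10.42 to 11.73 against 10.50 to 12.05 at 0 h and at 12.37 to 12.83 against 12.50 to 13.54 at 12 h. Channel levels carry array effects that a ratio on 1 array removes. They also carry dye effects of single probes, which such a ratio keeps and the dye term of the fit takes up.

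**Figure D1:**
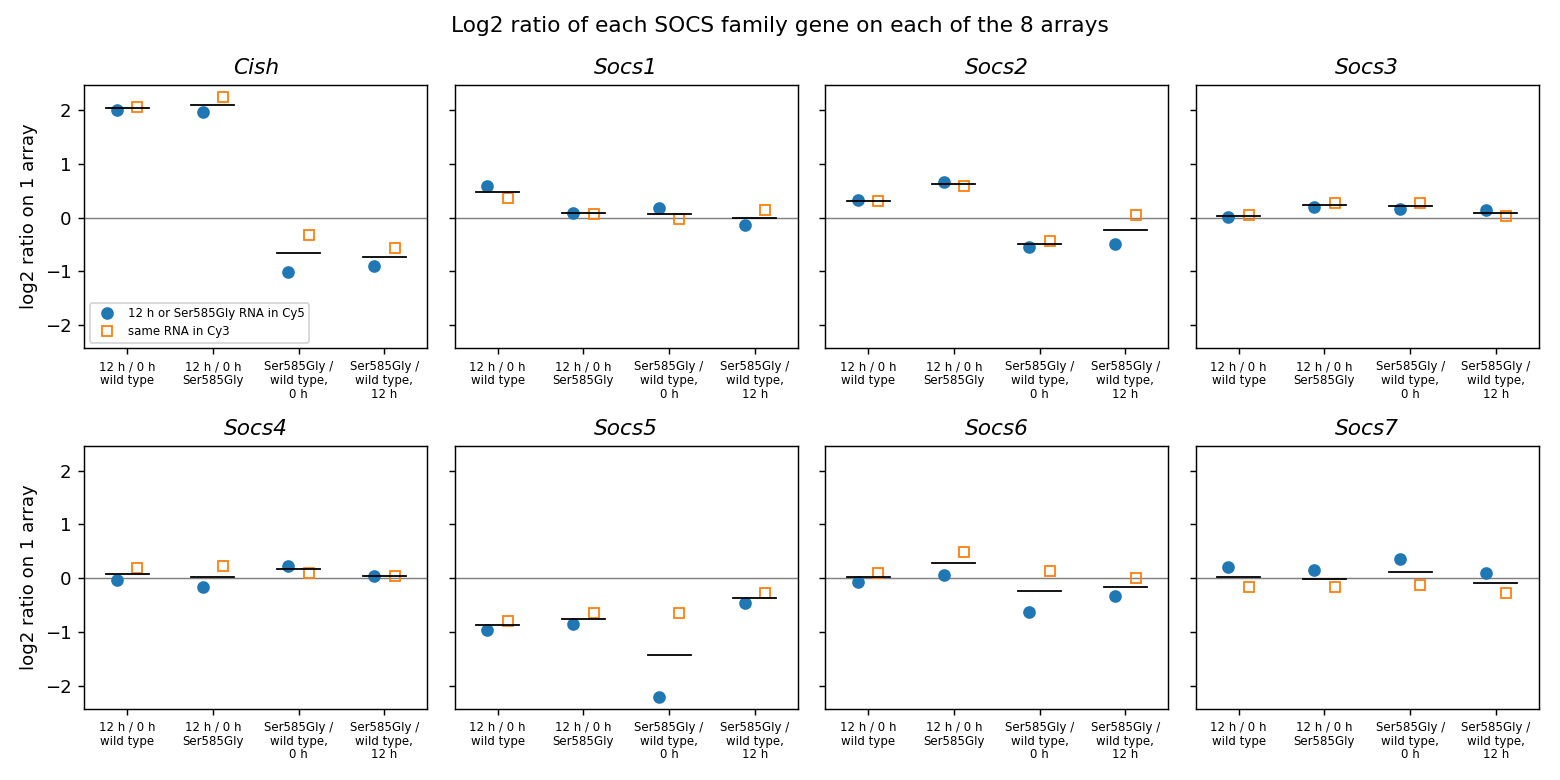
Each panel plots the log2 ratio of 1 SOCS family gene on each of the 8 arrays (vertical axis, log2), by side of the square (horizontal axis), with filled circles for replicate 1, open squares for replicate 2 and a line at their mean; Socs6 is shown by its brighter probe. Cish lies between 1.95 and 2.24 on the 4 time arrays, and Socs5 lies below 0 on all 8 arrays with 1 value at −2.20.

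Socs2 encodes the closest relative of CIS, a regulator of growth hormone signalling. It was called only in the Ser585Gly time comparison, where it rose about 1.53-fold. The Ser585Gly time arrays read 0.66 on replicate 1 and 0.59 on replicate 2, and the wild-type time arrays read 0.32 and 0.31. All 4 time ratios were above 0, and those of Ser585Gly lay above those of wild type. The fitted log2 ratio was 0.61 ± 0.11 in Ser585Gly (adjusted p = 0.0124, limma) and 0.32 ± 0.11 in wild type (adjusted p = 0.123). The difference between the genotypes in this rise did not pass, at 0.29 ± 0.13 with a 95% interval of −0.01 to 0.59 (adjusted p = 0.735). The Ser585Gly call was lost without replicate 1 of that side (adjusted p = 0.18) and without replicate 2 (0.0536).

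Between genotypes Socs2 read −0.55 and −0.43 at 0 h and −0.50 and 0.05 at 12 h. The 0 h pair was low on both arrays, and the 12 h pair was split around 0. Its fitted value of −0.50 ± 0.11 at 0 h lay just outside the threshold (adjusted p = 0.0501, limma), was called in 7 of 20 other settings and had its highest adjusted p of 0.503 without both direct arrays. At 12 h it was −0.21 ± 0.11 (adjusted p = 0.493). The channel levels of Socs2 were 11.23 ± 0.23 (SD, n = 4) in Ser585Gly at 0 h, 11.48 ± 0.40 in Ser585Gly at 12 h, 11.58 ± 0.28 in wild type at 12 h and 11.62 ± 0.37 in wild type at 0 h. All 4 ranges overlapped, so no neighbours in that order differed beyond their spread. In wild type the order ran against the time ratios of 0.32 and 0.31, which compare both RNAs on the same array.

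Socs1 encodes a potent direct inhibitor of JAK kinases. Its wild-type time ratios were 0.58 and 0.37, and its Ser585Gly time ratios were 0.08 and 0.07. The gene was thus higher at 12 h on all 4 time arrays, with the larger values in wild type, but no call was made. The fit gave 0.39 ± 0.12 in wild type (adjusted p = 0.0744, limma) and 0.16 ± 0.12 in Ser585Gly (adjusted p = 0.475), and the interaction was −0.23 with a 95% interval of −0.54 to 0.07. The wild-type value was called in 3 of 20 other settings, namely print-tip loess, the deposited value table and a random block for each side. The block had a negative correlation of −0.33 within a side. With it the same value of 0.39 had an adjusted p of 0.0223 (limma), so the block was not a stricter setting here. Between genotypes the arrays read 0.18 and −0.03 at 0 h and −0.14 and 0.14 at 12 h, which puts them on both sides of 0. Socs1 was the dimmest gene of the family, at the 17.4th percentile of brightness, above the limit set by empty wells. Its channel level was 7.89 ± 0.31 (SD, n = 4) in wild type at 0 h, 8.14 ± 0.10 in Ser585Gly at 0 h, 8.23 ± 0.19 in wild type at 12 h and 8.25 ± 0.16 in Ser585Gly at 12 h, and the ranges of neighbours overlapped.

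Socs3, the inhibitor that binds gp130-type receptors and JAK together, did not pass in any comparison. Its time ratios were 0.01 and 0.04 in wild type and 0.20 and 0.26 in Ser585Gly. Its mutation ratios were 0.17 and 0.28 at 0 h and 0.15 and 0.03 at 12 h. All 8 values were above 0 and small. The 95% interval of the fitted log2 ratio was −0.13 to 0.35 for time in wild type and −0.09 to 0.38 for time in Ser585Gly, so a rise as large as that of Cish lies outside both. Its channel level was 9.53 ± 0.23 (SD, n = 4) in Ser585Gly at 0 h, 9.59 ± 0.14 in Ser585Gly at 12 h, 9.59 ± 0.22 in wild type at 0 h and 9.61 ± 0.24 in wild type at 12 h, with overlapping ranges.

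Socs5, which is linked to epidermal growth factor and interleukin-4 receptor signalling, was the only member called lower over time. Its wild-type time ratios were −0.96 on replicate 1 and −0.79 on replicate 2, and its Ser585Gly time ratios were −0.84 and −0.65. All 4 time arrays were low in both dye orientations. The fitted value was −1.10 ± 0.24 in wild type, a 2.15-fold fall (adjusted p = 0.0261, limma), and −0.51 ± 0.24 in Ser585Gly, which did not pass (adjusted p = 0.247). The interaction was 0.59 ± 0.28 with a 95% interval of −0.05 to 1.23 (adjusted p = 0.742), so a difference between genotypes in this fall was not shown. On the direct arrays alone the 2 sides lay closer, at −0.87 (adjusted p = 0.0941) and −0.75 (adjusted p = 0.13). The wild-type call held in 14 of 20 other settings and was lost without replicate 1 or 2 of time in wild type (adjusted p = 0.0513 and 0.173), replicate 1 or 2 of the mutation at 12 h (0.0531 and 0.0594) or replicate 1 of time in Ser585Gly (0.0709). With 1 array left out, the Ser585Gly value ranged from −0.21 without replicate 2 of its own side (adjusted p = 0.743) to −0.70 without replicate 1 of the mutation at 0 h (adjusted p = 0.00239). The Ser585Gly value was also called with print-tip loess (−0.61, adjusted p = 0.0179) and with the deposited value table (−0.59, adjusted p = 0.000806).

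Between genotypes Socs5 read −2.20 on replicate 1 and −0.65 on replicate 2 at 0 h, and −0.46 and −0.28 at 12 h. All 4 values were below 0, but 1 array stood far below the rest. On that array the raw intensity was 942 in Cy5 for Ser585Gly and 3867 in Cy3 for wild type, and on its dye swap it was 1667 in Cy3 for Ser585Gly and 2420 in Cy5 for wild type. The gap of 1.56 between the 2 arrays was larger than that of 98.3% of all probes, whose median gap was 0.373. The fitted value at 0 h was −1.19 ± 0.24 (adjusted p = 0.036, limma), and at 12 h it was −0.60 ± 0.24 (adjusted p = 0.343). Without replicate 1 of the 0 h comparison the value at 0 h was −0.63 (adjusted p = 0.0412). Without both direct 0 h arrays, which leaves the path over the other 3 sides, it was −0.50 (adjusted p = 0.427). The call at 0 h held in 13 of 20 other settings. It was lost with dye-swap pairs averaged (adjusted p = 0.0524) and without the dye term (0.0592), both at −1.19, and also without replicate 2 of that comparison (adjusted p = 0.103), replicate 2 of the mutation at 12 h (0.0769), replicate 2 of time in wild type (0.0955) or replicate 1 of time in Ser585Gly (0.0956). Without both direct 0 h arrays the Ser585Gly time value was −0.75 (adjusted p = 0.00991). The wild-type fall and the 0 h difference share the wild-type 0 h RNA and are not independent of each other.

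The paths around the square show the same for Socs5. From wild type at 0 h to Ser585Gly at 12 h, direct arrays summed to −1.24 by way of wild type at 12 h and to −2.17 by way of Ser585Gly at 0 h. The mismatch of 0.93 was larger than that of 97.9% of probes, against a median of 0.205 over all probes. For Cish the same paths gave 1.29 and 1.43, a mismatch of 0.14 that lay at the 35.9th percentile. The Cish ratios thus closed the square about as well as a typical probe and the Socs5 ratios did not.

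Channel levels of Socs5 were 10.61 ± 0.39 (SD, n = 4) in Ser585Gly at 12 h, 10.91 ± 0.26 in wild type at 12 h, 10.98 ± 0.83 in Ser585Gly at 0 h and 11.88 ± 0.35 in wild type at 0 h. In wild type the 0 h channels, from 11.40, and the 12 h channels, up to 11.18, did not overlap. The other neighbours in that order overlapped, and the Ser585Gly 0 h channels ran from 9.92 to 11.81.

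**Figure D2:**
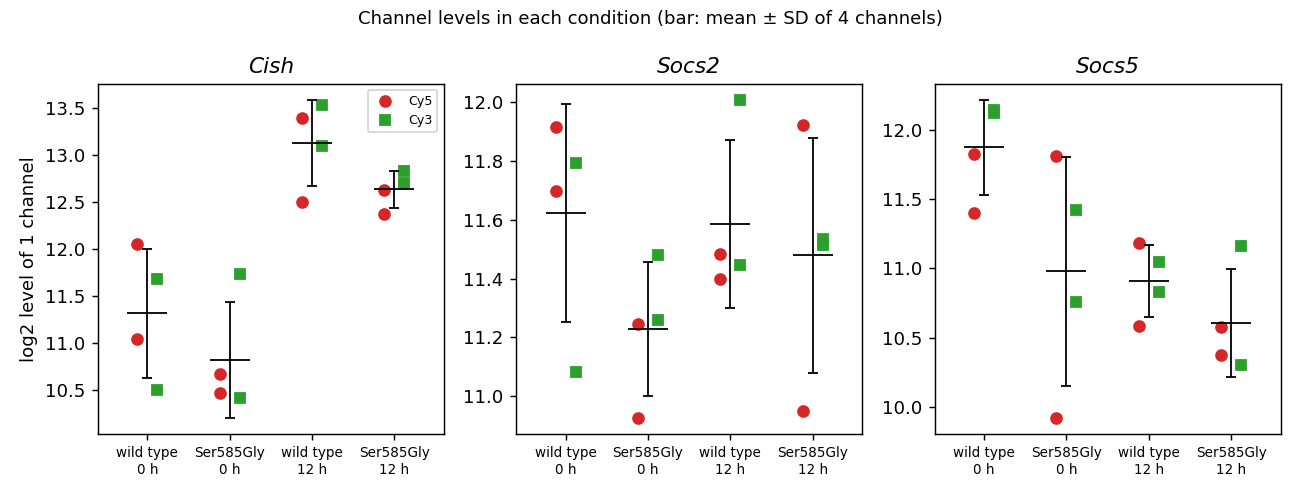
Channel levels (vertical axis, log2, on a scale of its own in each panel) of Cish, Socs2 and Socs5 in the 4 conditions (horizontal axis), with circles for Cy5, squares for Cy3 and bars for the mean ± SD of 4 channels. Cish channels at 12 h all lie above those at 0 h, Socs2 channels overlap in all conditions, and 1 Socs5 channel of Ser585Gly at 0 h lies at 9.92.

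Socs4, Socs6 and Socs7 did not pass in any comparison. Socs4, related in sequence to Socs5, read −0.02 and 0.20 for time in wild type, −0.16 and 0.22 for time in Ser585Gly, 0.23 and 0.11 for the mutation at 0 h and 0.05 and 0.03 at 12 h. Its fitted values lay between 0.01 and 0.15. Its channel level was 9.92 ± 0.63 (SD, n = 4) in wild type at 0 h, 10.18 ± 0.83 in wild type at 12 h, 10.37 ± 0.51 in Ser585Gly at 0 h and 10.52 ± 0.73 in Ser585Gly at 12 h, with overlapping ranges. Its time ratios thus lay on both sides of 0, and its mutation ratios were above 0 and small.

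Socs6, which acts on receptor tyrosine kinases such as Kit, was the only member with 2 probes. The brighter probe, at the 62.8th percentile of brightness, read −0.07 and 0.10 for time in wild type, 0.07 and 0.49 for time in Ser585Gly, −0.63 and 0.14 for the mutation at 0 h and −0.32 and 0.01 at 12 h. The dimmer probe, at the 21.8th percentile, read 0.31 and −0.12, 0.45 and 0.02, 0.41 and −0.42, and 0.35 and −0.21 in the same order. The dimmer probe was higher on replicate 1 and the brighter one on replicate 2 in all 4 pairs. In the fit, which has a dye term, the probes lay close for time, at 0.06 and 0.11 in wild type and 0.24 and 0.22 in Ser585Gly. At 0 h the mutation gave −0.29 ± 0.11 (adjusted p = 0.181, limma) on the brighter probe and −0.02 ± 0.10 (adjusted p = 0.91) on the dimmer one. Brighter-probe channel levels were 9.87 ± 0.54 (SD, n = 4) in Ser585Gly at 0 h, 10.04 ± 0.28 in Ser585Gly at 12 h, 10.27 ± 0.45 in wild type at 12 h and 10.28 ± 0.40 in wild type at 0 h, with overlapping ranges.

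Socs7, an adaptor-like member that binds insulin receptor substrate proteins, read 0.21 and −0.16 for time in wild type, 0.16 and −0.16 for time in Ser585Gly, 0.36 and −0.12 for the mutation at 0 h and 0.10 and −0.26 at 12 h. Replicate 1 was above 0 and replicate 2 below 0 in all 4 pairs, so the sign followed the dye. The fitted values lay between −0.05 and 0.08. Channel levels were 10.16 ± 0.75 (SD, n = 4) in wild type at 12 h, 10.57 ± 0.41 in Ser585Gly at 12 h, 10.59 ± 1.04 in wild type at 0 h and 11.11 ± 0.52 in Ser585Gly at 0 h, and they overlapped. These mean levels were lower at 12 h in both genotypes, whereas the fitted time ratios were 0.07 in wild type and −0.05 in Ser585Gly.

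Across the 8 genes, by their brightest probes, 1 rose and 1 fell in wild type between 0 h and 12 h, against 5.43% of all probes called higher and 4.03% called lower. In Ser585Gly 2 rose (Cish and Socs2) and 0 fell (limma), against 5.74% higher and 4.72% lower. At 0 h 0 were higher and 2 lower in Ser585Gly (Cish and Socs5), against 2.07% higher and 2% lower, and at 12 h 0 were higher and 1 lower (Cish), against 0.918% and 0.799%. For the interaction 0 of 8 passed (limma, 0 at an unadjusted p below 0.05), against 0.0551% of all probes. The members that did not pass lay between 0.06 and 0.39 for time in wild type and between −0.51 and 0.24 for time in Ser585Gly. The median of the 8 was 0.11 and 0.15 for these 2 comparisons, beside −0.01 and 0.01 over all probes. The family therefore did not move as a block, and with 8 genes these counts rest on single members.

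**Figure D3:**
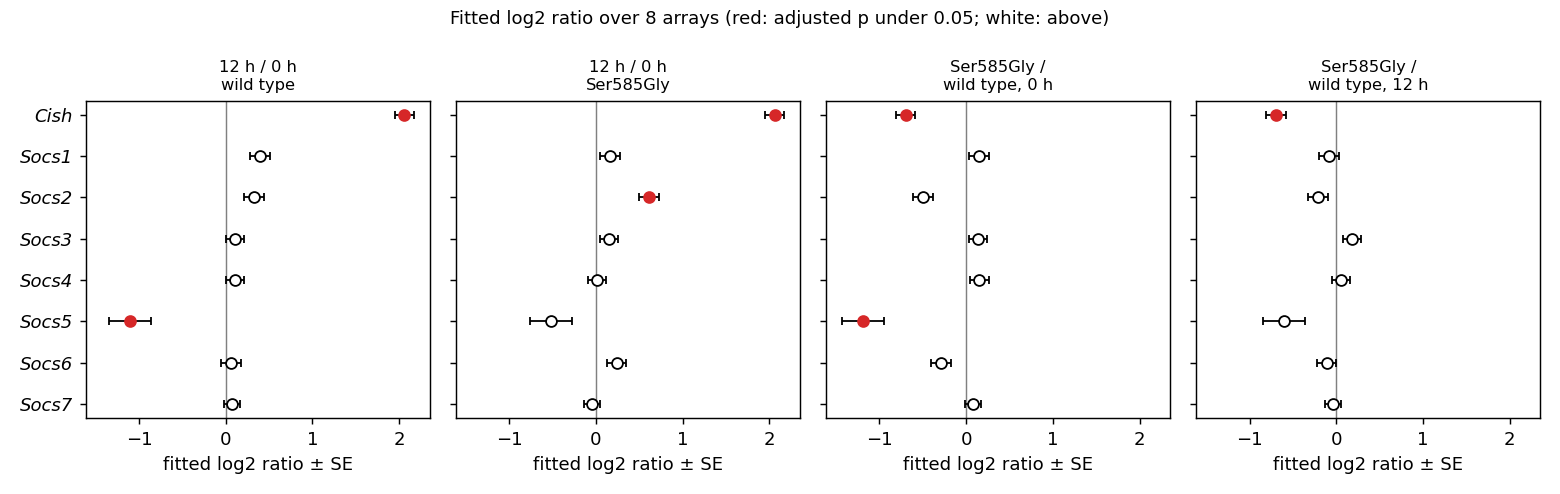
Fitted log2 ratio ± SE over 8 arrays (horizontal axis) of the 8 genes (vertical axis) in the 4 comparisons, in red where the adjusted p was below 0.05. Cish is called in all 4, Socs5 in wild type over time and at 0 h between genotypes, and Socs2 over time in Ser585Gly.

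Genes most like the 3 called members over the 8 turned ratios were taken from 14781 named genes above the limit of empty wells, by the smallest Euclidean distance. For Cish they were Lta, which encodes lymphotoxin alpha (distance 0.44, Pearson r = 0.995 over 8 arrays), a, the nonagouti gene (1.23, r = 0.963), and Il2ra, a receptor chain for interleukin-2 (1.32, r = 0.964). Lta read 2.25 and 2.10 for time in wild type, 1.85 and 2.25 in Ser585Gly, and −1.14, −0.16, −0.66 and −0.44 on the mutation arrays. These genes were picked for their likeness on the same 8 ratios, so their shared highs and lows follow from the choice and are a description only. For Socs2 the nearest were Dctpp1, a nucleotide pyrophosphatase (0.27), Ppp1r14b (0.29) and the ubiquitin ligase gene Ube3a (0.33). For Socs5 they were 2810049E08Rik (0.37), Zfp358 (0.68) and the phosphodiesterase gene Pde3b (0.70). On replicate 1 of the mutation at 0 h, which was among the ratios used to pick them, they read −2.25, −1.80 and −1.57, against −0.47, −0.74 and −0.55 on its dye swap. The 8 arrays are 4 pairs that share RNA, so these likenesses rest on few independent points.

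**Figure D4:**
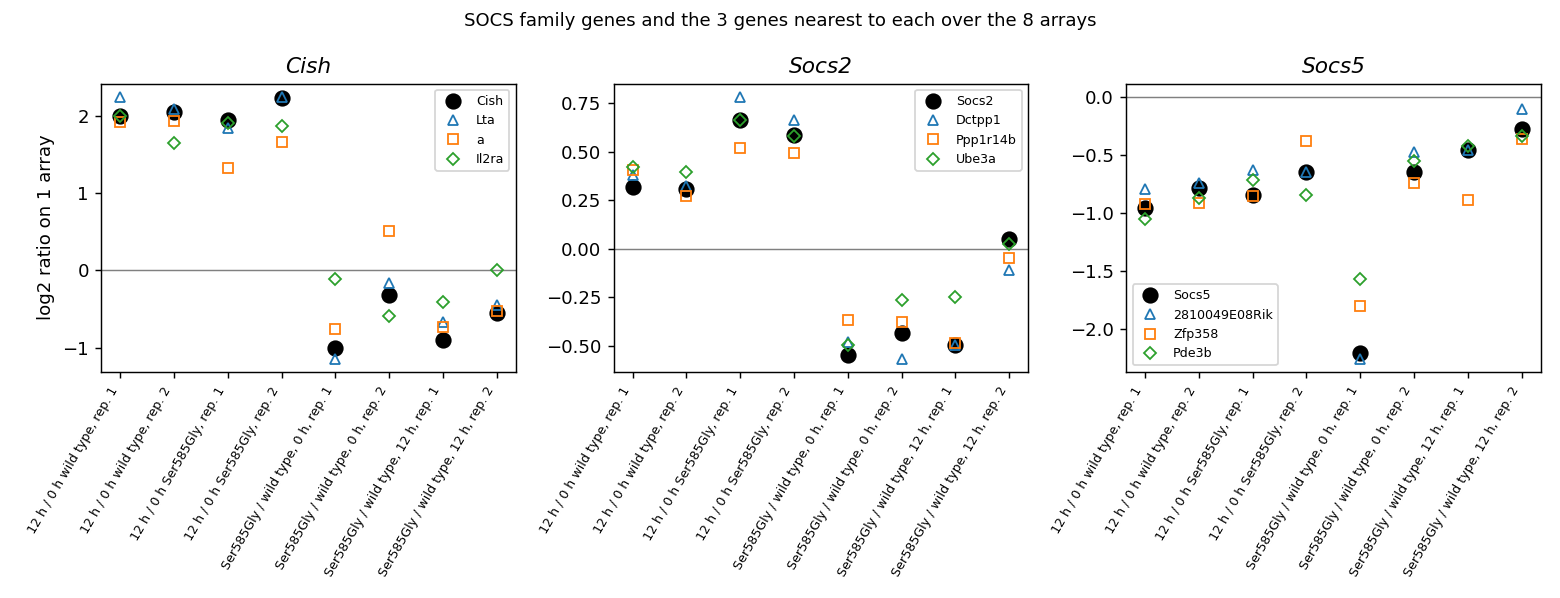
Log2 ratios (vertical axis, on a scale of its own in each panel) on the 8 arrays (horizontal axis) of Cish, Socs2 and Socs5 (black circles) and of the 3 genes nearest to each (open symbols). Lta lies close to Cish on every array, and the 3 genes near Socs5 lie at −2.25 to −1.57 on replicate 1 of the mutation at 0 h; both follow from how the genes were picked.

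Among STAT5-responsive genes other than the SOCS family, 20 of 22 listed genes were measured, 17 of them above the limit of empty wells. In wild type 11 rose between 0 h and 12 h and 2 fell, and the same counts were found in Ser585Gly. The largest rises were those of Pim2, a survival kinase (2.72 in wild type and 2.17 in Ser585Gly), Lta (2.12 and 2.10) and Il2ra (1.81 and 1.92), and Bcl6, a transcriptional repressor, fell (−1.13 and −1.39). The fitted rise of Cish lay between those of Lta and Il2ra. The median of the list was 0.55 in wild type and 0.64 in Ser585Gly, against −0.01 and 0.01 over all probes. Between genotypes 1 was higher and 4 were lower in Ser585Gly at 0 h, led by Id2, an inhibitor of helix-loop-helix factors (−1.22), Myc (−1.18) and Pim1 (−0.60), with a median of −0.15. At 12 h 0 were higher (limma, 1 at an unadjusted p below 0.05) and 6 lower, led by Id2 (−1.34), the cytolytic gene Prf1 (−0.95) and Pim1 (−0.85), with a median of −0.31, against 0.00 and −0.01 over all probes at 0 h and 12 h. The list was written with earlier results of these data known and is no independent evidence of direction.

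For the gene lists, the shares of all probes called higher and lower were 5.43% and 4.03% over time in wild type, 5.74% and 4.72% in Ser585Gly, 2.07% and 2% between genotypes at 0 h and 0.918% and 0.799% at 12 h, so a list of about 20 genes would hold about 1 in each direction at the shares over time. Of 9 measured JAK kinases and STAT factors, 0 passed in wild type over time (limma, 6 lower at an unadjusted p below 0.05) and 1 fell in Ser585Gly (Stat3, −0.51), with medians of −0.34 and −0.30. Between genotypes 0 of 9 passed at either time (limma, 1 at an unadjusted p below 0.05 at 0 h and 0 at 12 h). Of these 9 genes, 8 lay above the limit of empty wells. Jak2, the kinase used by beta-c, was at −0.47 (adjusted p = 0.0873, limma) in wild type and −0.43 (adjusted p = 0.106) in Ser585Gly over time. A list of receptor chains and substrates that SOCS proteins regulate held 29 measured genes. It also included the cytokine gene Tslp, which is neither and passed in no comparison. Of the 29, 4 rose and 2 fell in wild type and 3 rose and 2 fell in Ser585Gly. Il12rb1, a chain of the interleukin-12 receptor (0.75 and 0.79), Lepr, the leptin receptor (0.66 and 0.93), and Ghr, the growth hormone receptor on which SOCS2 acts (−0.65 and −0.73), were the largest in both. In Ser585Gly 1 was higher and 3 were lower at 0 h and 0 were higher (limma, 2 at an unadjusted p below 0.05) and 3 lower at 12 h. The lower genes were Il15ra (−1.35 and −0.996), Ifnar1 (−0.61 and −0.72) and Ifngr1 (−0.48 and −0.55).

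Of the partners that turn a SOCS box into a ubiquitin ligase, 1 of 8 measured was called in each time comparison. Eloc, which encodes elongin C and contacts the SOCS box directly, rose by 0.66 ± 0.10 in wild type (adjusted p = 0.00648, limma) and by 0.62 ± 0.10 in Ser585Gly (adjusted p = 0.0075). Elob, its dimer partner elongin B, was at 0.17 (adjusted p = 0.391) and −0.14 (adjusted p = 0.518), and Cul5, the cullin scaffold, at −0.05 and −0.39 (adjusted p = 0.0668). Between genotypes 1 of the 8 passed, the ubiquitin-like Nedd8 at 0 h (−0.79), whose probe was not above the limit of empty wells. Of 22 other SOCS-box genes, 0 passed between genotypes (limma, 6 at an unadjusted p below 0.05 at 0 h and 0 at 12 h), 2 rose in wild type over time, and 1 rose and 1 fell in Ser585Gly. Asb13, an ankyrin-repeat member, rose by 1.87 ± 0.13 and 1.57 ± 0.13, while Spsb2 (0.35) in wild type and Asb3 (−0.44) in Ser585Gly were the others. Asb13 thus came nearest to Cish in size among the other SOCS-box genes measured.

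A list of other regulators of JAK-STAT signalling, most but not all of them inhibitors, was mixed. Of 19 measured, 2 rose and 2 fell in each time comparison. Pias3, an inhibitor of STAT3, fell (−0.86 in wild type and −1.09 in Ser585Gly), and so did Stambp (−0.51 and −0.48). Sh2b3, the adaptor Lnk, rose in wild type (0.57), and the adaptor Dok2 rose in Ser585Gly (0.98). The other riser in both genotypes was Pias4, of the same family as Pias3, named after its values were seen (0.45, adjusted p = 0.0238, and 0.38, adjusted p = 0.0431, limma). Between genotypes 1 was higher and 4 were lower in Ser585Gly at 0 h and 1 was higher and 2 were lower at 12 h, with Ptprc, the phosphatase CD45 that can act on JAKs, at −1.59 and −1.73, and Dok2 at 0.80 and 1.44. Of 19 interferon-response genes, 1 fell in wild type (Irf7, −2.75), and 2 rose and 1 fell in Ser585Gly (Irf7 at −2.50 and Igtp at 0.73). At 0 h 1 was higher and 1 lower between genotypes, and at 12 h 0 passed (limma, 2 higher and 2 lower at an unadjusted p below 0.05).

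Of 17 measured T cell markers, 15 lay above the limit of empty wells, among them the CD3 chains, and Cd4 and Gzmb did not. Over time 2 rose and 2 fell in wild type and 1 rose and 2 fell in Ser585Gly, with Cd3e at −0.84 and −0.90. All 13 measured myeloid markers lay above that limit too. So did all 7 B cell, 4 erythroid and 8 fibroblast markers measured and 7 of 8 mast cell markers. Only 2.5% of all placed probes lay at or below the limit, so lying above it does not show which cell type was present. Between genotypes 1 myeloid marker was lower and 1 higher in Ser585Gly at both times, namely Ctsg, the protease cathepsin G (−2.07 and −2.34), and Cd68 (0.51 and 0.60). The summed linear channel level of the 13 markers ran from 8334 to 12570 in Ser585Gly at 0 h against 12070 to 12700 in wild type, and from 9061 to 12150 against 12110 to 15270 at 12 h. The median log2 ratio of the 13 markers between genotypes was 0.06 at 0 h and −0.03 at 12 h. The lower summed level was thus not a fall shared by the list. Any part of these marker values in the lower Cish and Socs5 of Ser585Gly was not tested.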

How the data were processed

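Scanner files gave a foreground and local background intensity for each dye, per the file headers. A table deposited by the authors held log2 ratios of Cy5 over Cy3, for which the submitters' processing notes name limma; further steps were not given in the sources used here, and absolute log2 ratios had a median of 0.14 on each array. Rows were matched to spots by their ratios (correlation 0.948 to 0.996 per array), and names were moved from the deposited 48-pin order to a recovered 24-pin order. The row's own spot was the nearest by ratios for 90.3% of placed probes, including all member probes but that of Cish, whose place rests on its probe number alone. The 244 empty wells lay at a median percentile of brightness of 1.34 in the recovered order and 47.5 in the deposited one. Their 95th percentile set the dim limit, which 2.5% of probes fell at or below.

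The normexp background correction used an offset of 50, and arrays were normalised by loess (span 0.3). limma 3.58.1 in R 4.3.3 fitted mutation, time, interaction and dye, with two-sided tests. The fit was tested on simulated data. Channel levels followed Aquantile scaling. Median foreground ran from 631 to 946 in Cy5 and 795 to 1105 in Cy3, and the number of arrays limits the precision.

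A gene is represented by its brightest probe. All members are named, with at most the 3 largest called genes per list and comparison (Pias4 excepted), genes of direct partners and the 3 nearest genes per called member. Members and lists were chosen with earlier results of these data known. Alternatives were other background corrections, print-tip loess, median centring, the deposited table, averaged pairs, no dye term, a random block, direct arrays, no dim probes, probe means, the deposited name order, each array left out and, added after seeing the data, both direct 0 h arrays left out; probe pairs per plate were also compared after seeing the data.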

Additional observations from a re-analysis of the deposited data

Results flagged for a closer look

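The 8 genes in 4 conditions gave 32 groups of 4 channels. In 4 of them the channel at one end stood apart from the other 3 by Dixon's 95% limit. For independent values that limit gives about 1 in 20. Channels carry array effects and each spot enters 2 groups, so the 4 of 32 cannot be set against that rate. The Socs6 level in Ser585Gly at 12 h was 10.46 in the Cy3 channel of replicate 2 of the mutation comparison. The Socs2 level in wild type at 12 h was 12.01 in the Cy3 channel of replicate 2 of the time comparison. Socs4 was low in both channels of replicate 1 of time in Ser585Gly, at 9.60 for the 0 h RNA in Cy3 and 9.44 for the 12 h RNA in Cy5, and the ratio of those channels on that array was −0.16.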

How the results depend on the processing

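Members called over time in wild type numbered 2, 4 with print-tip loess, 4 with the deposited value table, 4 with a random block for each side, 1 with direct arrays only and 1 to 2 with 1 array left out. In Ser585Gly over time 2 were called, 3 with print-tip loess, the deposited table or both direct 0 h arrays left out, and 1 to 3 with 1 array left out. For the mutation at 0 h 2 were called, 3 (with Socs2) with foreground only, local background subtracted, print-tip loess, the deposited table, a random block, no dim probes or probe means, but 1 without the dye term, 1 with direct arrays only, 0 with dye-swap pairs averaged, 0 with names in the deposited order, 0 without both direct 0 h arrays and 0 to 2 with 1 array left out (limma). For the mutation at 12 h 1 was called, but 2 with the deposited table, 0 with pairs averaged, 0 without the dye term, 0 with direct arrays only, 0 with names in the deposited order and 0 to 1 with 1 array left out. The interaction called 0 members under each alternative run. With names in the deposited order Cish was at −0.28 in wild type and −0.12 in Ser585Gly over time, Socs3 at −0.65 and −0.53, and Socs7 at 0.77 in Ser585Gly, so all results rest on the recovered order. Socs4 had no value in the fit of the deposited table, because no row of that table could be placed on its recovered spot. Over all probes, calls ranged from 411 to 4183 around 2061 for time in wild type, 269 to 4306 around 2277 for time in Ser585Gly, 4 to 3383 around 886 for the mutation at 0 h, 68 to 2209 around 374 at 12 h and 0 to 88 around 12 for the interaction. The cause of these changes was not tested. No paired analysis was possible because the replicate numbers name dye orientations and pair no samples across comparisons.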
